A study of Rattus norvegicus with 13 samples.

Results

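Short- and medium-chain fatty acid oxidation was described here through 10 genes of the mitochondrial pathway, Acads, Acadm, Hadh, Echs1, Eci1, Decr1, Acaa2, Etfa, Etfb and Etfdh, measured in fat. They were chosen by symbol in the annotation of the array, with the brightest probe of each symbol, and all 10 had 1 probe, out of 14506 genes named on the array. Adipose tissue came from 13 daughters of the outbred Sprague Dawley rat strain, taken at 14 weeks, with 1 array per animal. In the control group (n = 7) the father had eaten standard chow with 9% as fat, and in the high-fat group (n = 6) he had eaten pellets with 43% as fat. Fathers of both groups were mated at 15 weeks with females on chow, and daughters of both groups were weaned onto chow at 3 weeks and did not eat the high-fat diet. The labels give neither the depot the fat came from nor which daughters shared a father or litter, so p-values measure only the spread between these samples. Daughters are named by the number in their labels, which lay between 619 and 631 or between 656 and 664.

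Beta-oxidation shortens a fatty acyl-CoA in the mitochondrial matrix by repeated cycles of dehydrogenation, hydration, a further dehydrogenation and thiolytic cleavage. Separate enzymes take over once the chain is of short or medium length, auxiliary enzymes move or remove double bonds of unsaturated chains, and the electrons of the acyl-CoA dehydrogenases pass through the electron transfer flavoprotein (ETF) to ubiquinone. In fat the pathway is best known from brown adipocytes, in which Ucp1, the uncoupling protein, turns the released energy into heat, and skeletal muscle also burns fatty acids in this way.

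The labelled tissue bore the markers of fat, with a mean log2 level of 10 adipocyte markers of 11.93 to 12.06 in controls and 11.97 to 12.16 in high-fat daughters. Pieces differed in what else they held. The muscle signal, the mean log2 level of 16 measured of 20 skeletal muscle markers, was 7.26 to 7.41 in 9 arrays and 9.33 to 12.06 in the other 4, which were controls 662 and 664 and high-fat daughters 619 and 629. Ucp1 read 6.11 to 7.40 in 9 arrays and 9.28, 9.76, 10.96 and 11.02 in control 658, control 662, high-fat 663 and high-fat 629. These measures did not part the diet groups, with a high-fat minus control difference of -0.20 in muscle signal (exact permutation p = 0.910, two-sided, 1716 arrangements) and 0.48 in Ucp1 (exact permutation p = 0.636). Array spread, the SD of all values of an array, had a mean of 1.89 in controls and 1.93 in high-fat daughters (exact permutation p = 0.124). In pieces of tissue, fewer cells of a type and less RNA per cell cannot be told apart. Of the fat cell's own markers, 9 of 10 had a higher high-fat mean (median difference 0.10), among them Fabp4, the fatty acid carrier (0.20 ± 0.06), Lipe, hormone-sensitive lipase (0.16 ± 0.05), and Plin1, the lipid droplet coat (0.18 ± 0.06), the 3 with an unadjusted p under 0.05 in limma. Endothelial markers were higher for 5 of 5 (median 0.10). Means of 5 measured of 7 mesothelial markers spanned 7.41 to 9.19 in controls and 7.60 to 8.75 in high-fat daughters, with a lower high-fat mean for 5 of 5 (median difference -0.42), and those of 5 T cell markers 6.58 to 7.38 and 6.51 to 6.92, also lower for 5 of 5 (median -0.18). None of these markers passed in limma, 1 T cell marker was lower at an unadjusted p under 0.05, and their part in the results was not tested.

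Promoter sequences from RefSeq (build GRCr8, 250 bases before to 50 after the gene start) were at hand for 8 of the 10 genes, all but Decr1 and Acaa2. For Acads the start used lies inside the gene, downstream of its first base in the RefSeq gene table. Acads and Echs1 are shown because their levels set the groups most nearly apart while their slopes on Ucp1 were within 1 SE of 0, and Acadm because it had the largest slope on Ucp1. Capitals mark the GC box GGGCGG, read on both strands.
Acads promoter, chr12:47154083-47154382, + strand: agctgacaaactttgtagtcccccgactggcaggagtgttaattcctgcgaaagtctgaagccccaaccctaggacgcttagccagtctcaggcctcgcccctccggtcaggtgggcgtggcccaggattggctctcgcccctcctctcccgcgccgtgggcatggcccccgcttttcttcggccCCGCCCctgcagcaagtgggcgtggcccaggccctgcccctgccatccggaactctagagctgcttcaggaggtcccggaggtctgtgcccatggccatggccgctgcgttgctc
Echs1 promoter, chr1:204333457-204333756, - strand: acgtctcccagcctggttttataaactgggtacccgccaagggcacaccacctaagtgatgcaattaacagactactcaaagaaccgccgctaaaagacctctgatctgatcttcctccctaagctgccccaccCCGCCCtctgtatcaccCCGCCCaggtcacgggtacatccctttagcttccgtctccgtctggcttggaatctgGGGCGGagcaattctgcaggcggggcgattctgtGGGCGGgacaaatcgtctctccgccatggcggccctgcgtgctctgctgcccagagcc
Acadm promoter, chr2:245542815-245543114, - strand: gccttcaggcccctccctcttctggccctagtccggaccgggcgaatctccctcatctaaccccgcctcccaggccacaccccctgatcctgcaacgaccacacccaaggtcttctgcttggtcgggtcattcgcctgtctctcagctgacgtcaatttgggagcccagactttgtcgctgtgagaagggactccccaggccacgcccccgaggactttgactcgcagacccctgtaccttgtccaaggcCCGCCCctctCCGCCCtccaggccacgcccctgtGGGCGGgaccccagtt
The GC box, a site bound by Sp1 family factors, was found in 7 of the 8 promoters, all but Etfa, and in 33.1% of all 33469 promoters of the table. Members' promoters held 58.3% to 66% G and C, with a median of 63.2%, against a median of 51.7% over all promoters. The NRF1 motif occurred in those of Etfb and Etfdh, and in 4.25% of all promoters. In these windows, on either strand, 0 of the 8 held AAGGTCA, the site of estrogen-related receptors (4.61% of all), the direct repeat read by PPAR receptors with RXR (0.0538%), or CCGGAAG, an ETS site (8.75%). The AGGTCA core is shared by the receptor site and the direct repeat, so these matches can overlap. A match is a description of letters and shows no binding.

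Daughters of high-fat fathers had the higher mean log2 level for all 10 genes, as did 58% of all genes, and the median difference of the 10 was 0.22 against 0.03 over all genes. The differences reached at most 1.28-fold (Hadh) and exceeded the SD within either group for Acads, Hadh, Echs1, Decr1 and Eci1. In limma 0 of 10 genes passed an adjusted p of 0.05 over all 14506 genes, as did 0% of all genes. At an unadjusted p under 0.05 in limma, 5 of 10 were higher (Acads, Hadh, Echs1, Decr1 and Eci1), against a background of 5.42%, and 0 of 10 were lower, against 2.54%. All 10 genes read above the median level of every array (7.66 to 7.72). The shares given here are over all genes, dim ones included, and none was taken among genes as bright as these. The genes were proposed with these differences known, so the counts are a description and support nothing.

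**Figure D1:**
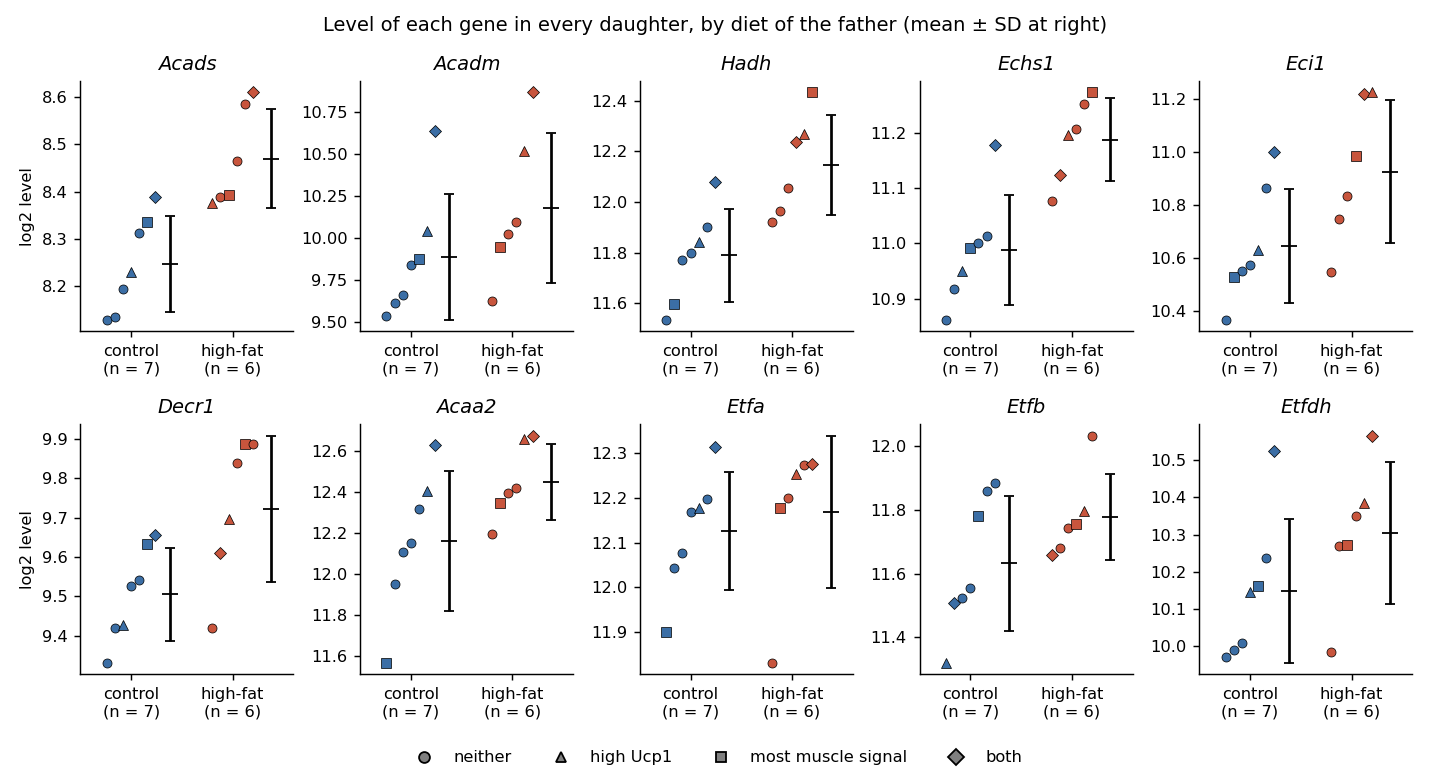
Log2 level of each of the 10 genes (vertical axes, 1 panel per gene, own scale) in the 7 control (blue) and 6 high-fat (red) daughters, with the group mean and SD at the right of each group. Point shape marks the arrays with high Ucp1 only, with most muscle signal only and with both, 2 of each. Acads, Hadh and Echs1 show the least overlap.

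Acads, the dehydrogenase that starts the cycle on short-chain acyl-CoA, had a lowest, median and highest log2 level of 8.13, 8.23 and 8.39 in controls and 8.38, 8.43 and 8.61 in high-fat daughters. Only control 662 reached into the high-fat range, and 4 of 6 high-fat daughters lay above every control. The difference, high-fat minus control, was 0.22 ± 0.06 (limma SE), a fold of 1.17. Acadm, which does the same for medium-chain acyl-CoA, read 9.54, 9.84 and 10.64 in controls and 9.62, 10.06 and 10.86 in high-fat daughters. These ranges overlapped almost wholly, and 1 of 6 high-fat daughters exceeded the highest control. Its difference of 0.29 ± 0.20 was larger than that of Acads but so was its spread, with an SD of 0.37 in controls and 0.44 in high-fat daughters against 0.10 in each group for Acads.

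Echs1, the short-chain enoyl-CoA hydratase that adds water to the double bond, spanned 10.86, 10.99 and 11.18 (lowest, median, highest) in controls and 11.08, 11.20 and 11.27 in high-fat daughters. Here again 6 of 7 controls lay below every high-fat daughter, control 662 being the exception, and the difference was 0.20 ± 0.06. Hadh, the dehydrogenase that oxidises the hydroxyl group of short- and medium-chain intermediates, read 11.53, 11.80 and 12.08 in controls and 11.92, 12.15 and 12.43 in high-fat daughters. Control 662 was once more the only control inside the high-fat range, and the difference of 0.36 ± 0.10 was the largest of the 10. Acaa2, the thiolase that cuts off acetyl-CoA, spanned 11.57, 12.15 and 12.63 in controls and 12.20, 12.41 and 12.67 in high-fat daughters. Its control range held a low value in control 664 and a high one in control 662, so that the groups overlapped, with a difference of 0.29 ± 0.14.

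Eci1, the isomerase that shifts a double bond into the position the hydratase can use, read 10.37, 10.58 and 11.00 in controls and 10.55, 10.91 and 11.22 in high-fat daughters, a difference of 0.28 ± 0.12. Both high-fat daughters above all controls, 629 and 663, were among the 4 with high Ucp1. Decr1, the reductase needed for polyunsaturated chains, had 9.33, 9.53 and 9.66 in controls and 9.42, 9.77 and 9.89 in high-fat daughters, a difference of 0.22 ± 0.08. For Decr1 4 of 6 high-fat daughters lay above all controls, while high-fat 660 lay among the lowest controls.

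The 3 genes of electron transfer differed least. Etfa, the alpha subunit of the flavoprotein, read 11.90, 12.17 and 12.31 in controls and 11.83, 12.23 and 12.28 in high-fat daughters, and its difference was 0.04 ± 0.08, with both the lowest daughter in the high-fat and the highest in the control group. Etfb, the beta subunit that pairs with it, spanned 11.32, 11.55 and 11.88 in controls and 11.66, 11.75 and 12.03 in high-fat daughters, a difference of 0.15 ± 0.10. Etfdh, the ubiquinone oxidoreductase that takes the electrons from the flavoprotein, read 9.97, 10.15 and 10.53 in controls and 9.98, 10.31 and 10.57 in high-fat daughters, a difference of 0.16 ± 0.10. None of these 3 genes parted the groups. Over all 10 genes, 0 had every high-fat daughter above every control, a pattern seen in 0.0551% of all genes.

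With all 6 arrays of high Ucp1 or much muscle signal left out, a setting chosen after seeing the data, 4 controls and 3 high-fat daughters remained. The median difference was 0.22 in these 7 arrays, as over all 13, and 9 of 10 genes had a higher high-fat mean, against 56.5% of all genes. Acads then read 8.13, 8.19, 8.13 and 8.31 in controls 622, 627, 631 and 656 and 8.47, 8.59 and 8.39 in high-fat daughters 620, 624 and 660. The groups no longer overlapped for Acads, Echs1 and Hadh. This had to follow from the choice of arrays, because the only control inside their high-fat ranges over all 13 was among the 6 left out. The share of all genes with such a gap, 3.19%, is thus no yardstick for these genes. The differences of Acads, Echs1 and Hadh were 0.29 ± 0.08, 0.23 ± 0.08 and 0.23 ± 0.10. Eci1 came to 0.12 ± 0.12 in place of 0.28, and Etfa to -0.02 ± 0.11. No member passed the adjusted threshold in these arrays (limma, 0 of 10, all adjusted p 0.997, 0% of all genes). At an unadjusted p under 0.05 in limma, 2.65% of all genes were higher, and the members' count at that threshold is not given here.

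**Figure D2:**
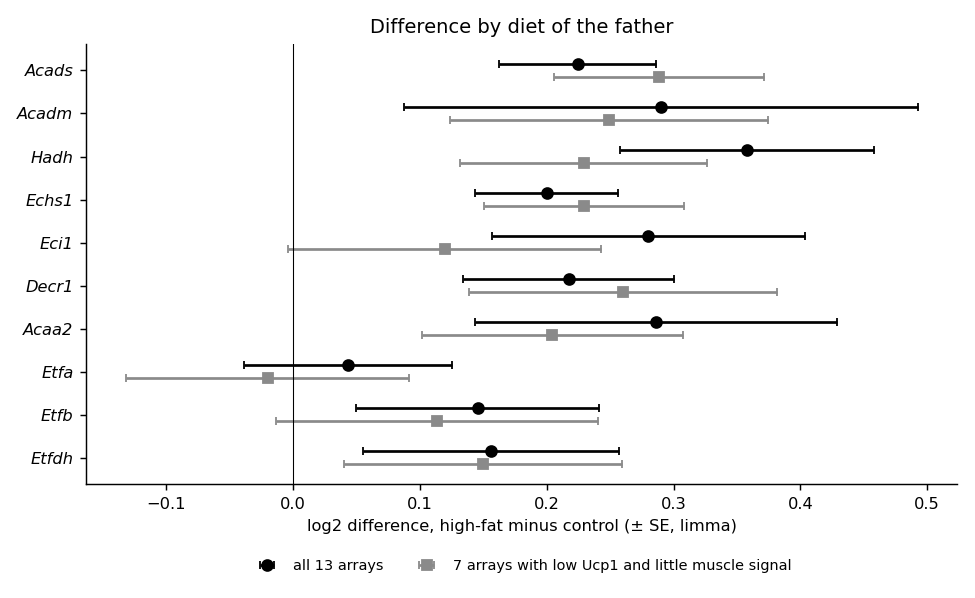
Log2 difference, high-fat minus control, with its limma SE (horizontal axis) for each gene over all 13 arrays (black) and over the 7 arrays with low Ucp1 and little muscle signal (grey). Acads, Echs1 and Decr1 were no smaller in the 7 arrays, and Eci1 and Hadh were smaller, 0.12 and 0.23.

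Differences were also taken within the 2 ranges of daughter numbers, whose meaning the labels do not give. Among daughters 619 to 631 (3 control, 4 high-fat) all 10 genes had a higher high-fat mean, with a median difference of 0.32, and among daughters 656 to 664 (4 control, 2 high-fat) 7 of 10 did, with a median of 0.09. All genes gave 55.9% and 58.5% higher in these ranges. Acads differed by 0.36 ± 0.08 in the first range and 0.07 ± 0.10 in the second, and Acadm by 0.63 ± 0.21 and -0.03 ± 0.30. Hadh (0.46 ± 0.13 and 0.26 ± 0.16) and Acaa2 (0.27 ± 0.10 and 0.29 ± 0.30) had positive differences in both. The change between ranges was tested itself as an interaction in limma, and 0 of 10 genes passed, as did 0% of all genes (adjusted p 0.999 for each). At an unadjusted p under 0.05, Acads was the only member, with an interaction of -0.30 ± 0.11, where 3.47% of all genes had such a p. Muscle signal was high only in high-fat daughters in the first range (619 and 629) and only in controls in the second (662 and 664). It thus moved with the interaction of diet and range. High Ucp1 was seen in high-fat 629 of the first range and in controls 658 and 662 and high-fat 663 of the second. With muscle signal as a covariate, 0 of 10 passed for the interaction as well, and the part of Ucp1 was not tested.

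Ordered by Ucp1, 3 of the 4 daughters with high Ucp1 had the highest levels of Acadm, Eci1, Acaa2 and Etfdh. Acadm read 10.04 in control 658, 10.64 in control 662, 10.52 in high-fat 663 and 10.86 in high-fat 629, and 9.54 to 10.09 in the 9 daughters with low Ucp1. For each of these 4 genes, 3 of the 4 high-Ucp1 daughters lay above every low-Ucp1 daughter, control 658, the one with the lowest Ucp1 of the 4, being the exception. For Acads 1 of 4 did, for Etfa 2, and for Hadh, Echs1, Decr1 and Etfb none of the 4. Etfb in the high-Ucp1 daughters (11.32 to 11.80) reached lower than in any low-Ucp1 daughter (11.52 to 12.03).

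**Figure D3:**
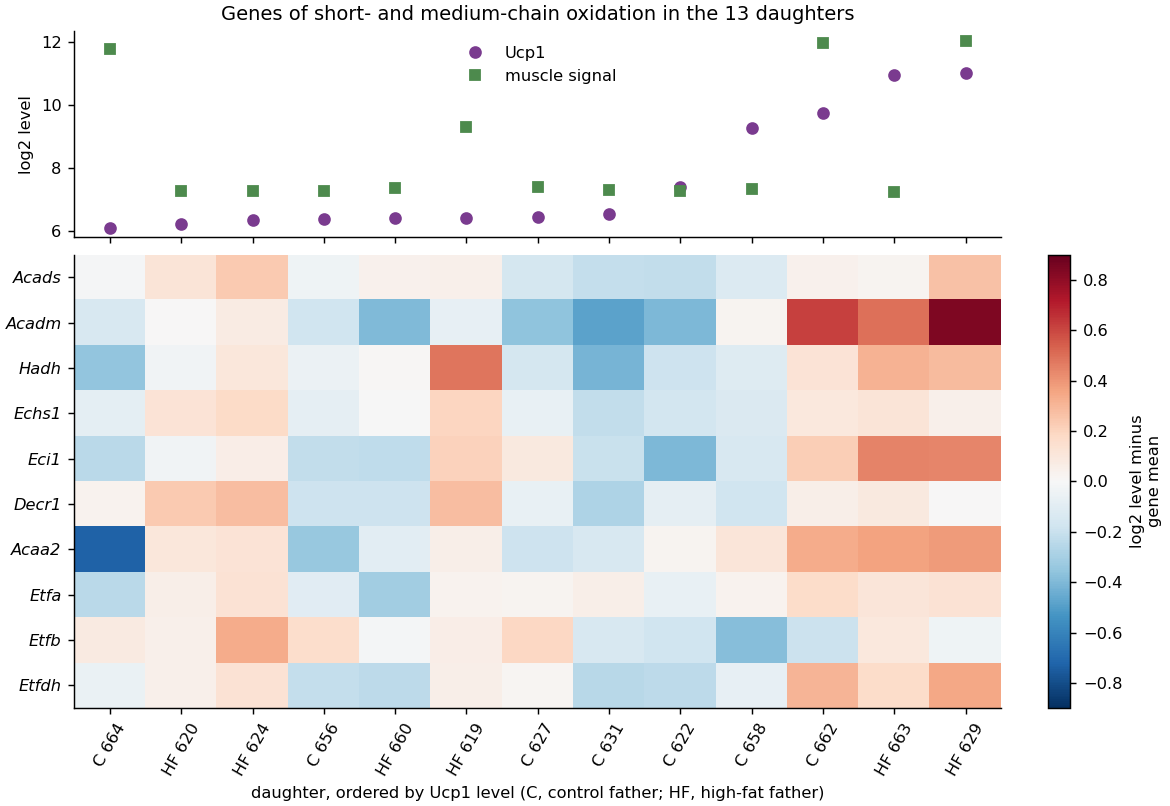
Top, log2 level of Ucp1 and the muscle signal in the 13 daughters, ordered by Ucp1 (horizontal axis). Bottom, log2 level of each gene minus its mean over the 13 daughters (colour, red above and blue below). The columns of control 662, high-fat 663 and high-fat 629 are red for Acadm, Eci1, Acaa2 and Etfdh. Control 658 lies below the mean for Eci1 and Etfdh. Etfb lies above its mean in high-fat 663 and below it in the other daughters with high Ucp1.

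With the diet of the father in the model, the slope of Acadm on Ucp1 was 0.18 ± 0.03 log2 units per log2 unit of Ucp1, with an adjusted p of 0.0665 in limma over 14505 genes. Acaa2 had a slope of 0.11 ± 0.03, Eci1 of 0.09 ± 0.03 and Etfdh of 0.06 ± 0.02, with adjusted p of 0.152, 0.233 and 0.315. Slopes of Acads (0.01 ± 0.02), Echs1 (0.00 ± 0.02) and Decr1 (-0.01 ± 0.02) lay within 1 SE of 0, and that of Etfb was -0.05 ± 0.02. At the adjusted threshold 0 of 10 genes passed, against 0.0896% of all genes with a positive and 0.0207% with a negative slope. With array weights 3 passed, Acadm, Eci1 and Acaa2, and without high-fat 663 Acadm passed (slope 0.20), so that the count depended on the setting. Since Ucp1 fell in 2 separate sets of arrays, a slope rests on the 4 high ones, no pooled correlation is given, and neither set alone was tested. Leaving out those with most muscle signal kept 2 of the 4.

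**Figure D4:**
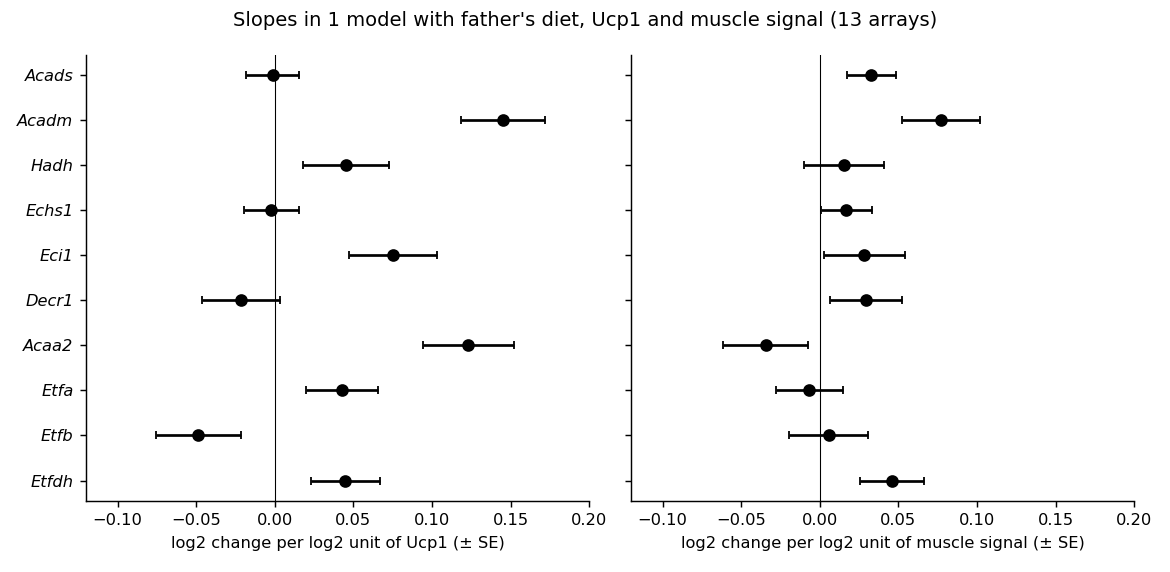
Slopes (± limma SE) of each gene on Ucp1 (left) and on muscle signal (right), in log2 units per log2 unit, from 1 model with diet of the father and both measures over 13 arrays. Acadm and Acaa2 lie farthest to the right for Ucp1, at 0.15 and 0.12, and Acadm for muscle signal, at 0.08.

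For muscle signal, with diet in the model, the slope was 0.13 ± 0.04 for Acadm, 0.06 ± 0.02 for Etfdh and 0.03 ± 0.01 for Acads per log2 unit of muscle signal, and 0 of 10 genes passed (limma adjusted p 0.290 to 0.987), against 1.55% of all genes with a positive slope and 0.0138% with a negative one. With array weights, Acadm and Etfdh passed. Muscle signal too fell in separate sets of arrays, so these slopes rest on the 4 high ones. Among those, control 662 and high-fat 629 also had high Ucp1. Without the 4, 0 of 10 genes passed and the slope of Acadm was -2.2 ± 1.9. The daughters with much muscle signal and low Ucp1, control 664 and high-fat 619, show the gene levels apart from Ucp1. Acadm read 9.88 and 9.94 there, inside the range of the 7 daughters with neither (9.54 to 10.09), a range that pools both diet groups. Within its own group, control 664 lay above the 4 controls with neither (9.54 to 9.84). High-fat 619 lay inside the range of the 3 high-fat daughters with neither (9.62 to 10.09). Acaa2 read 11.57 in control 664, the lowest of all 13, and 12.35 in high-fat 619, and Hadh 11.60 and 12.43, the highest of all 13. With Ucp1 and muscle signal both in the model, the Ucp1 slope was 0.15 ± 0.03 for Acadm and 0.12 ± 0.03 for Acaa2 (adjusted p of 0.104 and 0.251 in limma), and the muscle slope of Acadm was 0.08 ± 0.02 (0.360). In this model 0 of 10 passed for Ucp1 (0.0827% of all genes positive, 0% negative) and 0 of 10 for muscle signal (1.33% positive, 0.00689% negative). In that model the diet differences were 0.23 ± 0.06 for Acads, 0.20 ± 0.06 for Echs1 and 0.34 ± 0.09 for Hadh, each with an adjusted p of 0.352.

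Among themselves the 10 genes mostly varied together over the daughters. Of 45 pairs, 42 (93.3%) had a positive Pearson r over 13 arrays, with a median of 0.62. A positive r was found in 52.5% of all gene pairs and in 79.4% of pairs among genes above the middle level. Of the 45 pairs, 23 passed an adjusted p of 0.05 over the 45 (100000 permutations, two-sided), or 25 by Spearman rho. The lowest r among these 23 was 0.62, and 51.1% of the members' pairs reached it, against 12% of all gene pairs and 24.7% of pairs among the 7253 genes above the middle level, whose median r was 0.38. Levels of a gene had no gap over 1 log2 unit, but both diet groups and the Ucp1 and muscle sets are pooled in these values, and all genes share their arrays. Acadm and Etfdh had the highest r, 0.91 (Spearman rho = 0.91, adjusted permutation p = 0.0018 and 0.00315), and r was 0.80 without the 2 arrays farthest from the median of Acadm. Eci1 and Etfdh had r = 0.89 (rho = 0.85, adjusted permutation p = 0.00247 and 0.00558) and 0.86 without 2 arrays. Echs1 and Decr1 came next, with r = 0.87 (rho = 0.84, adjusted permutation p = 0.0027 and 0.00558). Hadh and Echs1 had r = 0.83 (rho = 0.85, adjusted permutation p = 0.00619 and 0.00558). Acadm and Eci1 had r = 0.82 (rho = 0.76, adjusted permutation p = 0.00666 and 0.0132). Acads and Echs1 had r = 0.79 (rho = 0.84, adjusted permutation p = 0.00975 and 0.00577). Without 2 arrays the r of these pairs was 0.80, 0.71, 0.74 and 0.66.

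Etfb had 0 of its 9 pairs past the threshold, with r from -0.24 (Acaa2) to 0.49 (Decr1). With Etfa, the subunit it binds in a fixed ratio in the flavoprotein, r was -0.04 (rho = -0.16, adjusted permutation p = 0.897 and 0.648), and 0.02 without the 2 arrays farthest from the median of Etfa. In the 9 arrays without those of most muscle signal, 6 of 45 pairs passed (exact permutation over 362880 pairings), with a median r of 0.61. Acads and Echs1 had the highest r there, 0.93 (adjusted exact p = 0.00688), while Acadm and Etfdh had 0.81 (adjusted exact p = 0.0539). In these 9 arrays Etfb stood less apart, with r from -0.08 (Acaa2) to 0.67 (Echs1) and a median of 0.49, against 0.51 for Etfa. No pair of Etfb, Etfa or Acaa2 passed there.

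**Figure D5:**
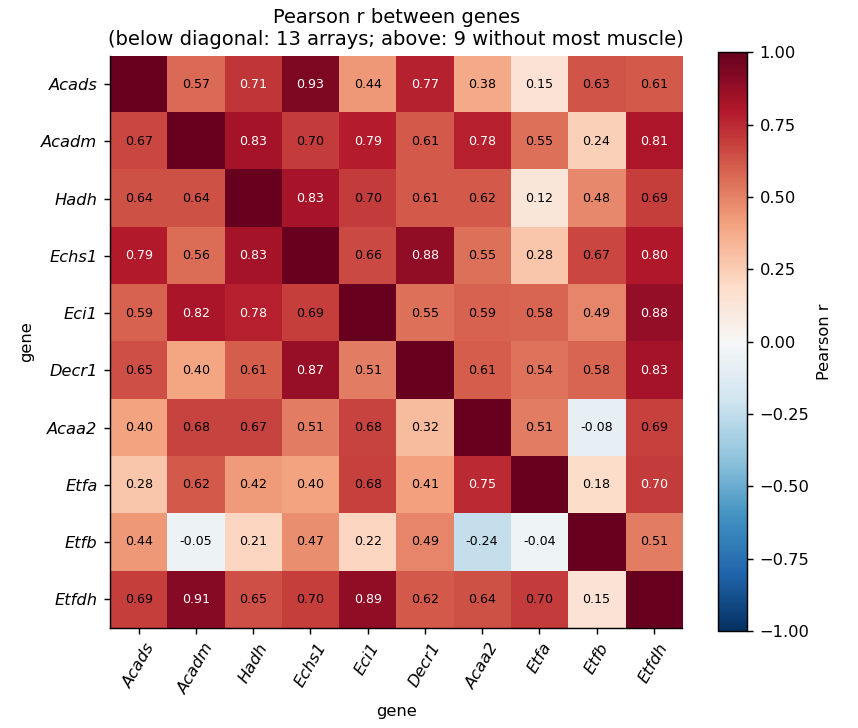
Pearson r between each pair of the 10 genes (colour and number), below the diagonal over 13 arrays and above it over the 9 arrays without those of most muscle signal. Below the diagonal the values of Etfb are the palest, and Acadm and Etfdh reach 0.91. Above it Etfb (median r 0.49) lies close to Etfa (0.51).

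Genes next to these in the pathway, taken from lists of known members, mostly had a higher high-fat mean too, and 0 of them passed for diet in limma. Of 10 genes for the carnitine shuttle and long-chain steps, 10 had a higher high-fat mean, with a median of 0.19, where 58% of all genes were higher. In daughters 656 to 664 alone 5 of these 10 were higher, with a median of 0.02. The smallest p belonged to Acsl1, which activates long-chain fatty acids (0.16 ± 0.06), Acad9, a relative of the dehydrogenases that also serves complex I assembly (0.15 ± 0.07), and Hadha, the alpha subunit of the trifunctional protein (0.15 ± 0.07). Among 8 measured of 10 further enzymes and factors that hand electrons to ETF or act on it, 7 were higher, with a median of 0.14, led by Gcdh of lysine breakdown (0.23 ± 0.08) and Ivd of leucine breakdown (0.17 ± 0.07). Of the other short- and medium-chain enzymes and activators listed, 11 were measured, and 9 of these were higher (median 0.12). Regulators were higher for 12 of 14 (median 0.09). The leading genes were Echdc1, ethylmalonyl-CoA decarboxylase (0.30 ± 0.13), Acat1, acetoacetyl-CoA thiolase (0.23 ± 0.11), and the receptor Ppard (0.13 ± 0.07). At an unadjusted p under 0.05, 3 long-chain genes, 3 of the ETF list, 1 of the other enzymes and 0 regulators were higher, against 5.42% of all genes.

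Several neighbours of the pathway rose with Ucp1, and were named after their values were seen. In limma with diet in the model, Cpt1b, the muscle and brown fat form of the carnitine acyltransferase, had a slope of 0.49 ± 0.07 (adjusted p = 0.016) and Acadl, the long-chain dehydrogenase, one of 0.16 ± 0.02 (0.0148). Ppargc1a, the coactivator of mitochondrial biogenesis, rose by 0.39 ± 0.04 per unit (adjusted p = 0.00241) and Ppara, the receptor that drives fatty acid oxidation genes, by 0.24 ± 0.03 (0.0132). These were 2 of 10 long-chain genes and 2 of 14 regulators, where 0.0896% of all genes had a positive slope past the threshold. Neither the other enzymes nor the ETF list had a gene past the threshold, and Acot13, a thioesterase, rose with muscle signal (0.07 ± 0.02, adjusted p = 0.0189). With Ucp1 also in the model, the muscle slope passed for Cpt1b (0.22 ± 0.04, adjusted p = 0.0114) and Ppargc1a (0.13 ± 0.03, adjusted p = 0.0447) and was 0.07 ± 0.02 for Acot13 (adjusted p = 0.0635). Whether slopes of the long-chain genes exceed those of the 10 was not tested.

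By likeness to the mean level of the 10 genes, the genes outside them with the highest Pearson r over 13 arrays were Letmd1, a mitochondrial membrane protein (0.95), Aifm1, a flavoprotein of the intermembrane space (0.94), Sucla2 of the citric acid cycle (0.94), Ndufa9 of complex I (0.93), Tufm, the mitochondrial elongation factor (0.92), Uqcrc1 of complex III (0.92), Paics of purine synthesis (0.91) and Cs, citrate synthase (0.91). Over the 9 arrays without most muscle signal, Uqcrc1 (0.97) and Uqcrfs1 (0.94), both of complex III, led, followed by Sucla2 (0.93), Gtf3c6 (0.93), Ndufa9 (0.92), Tufm (0.92), Cks1b (0.92) and Letmd1 (0.91). These are the top of 14506 genes less the 10 and carry no test.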

How the data were processed

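Biotin-labelled cRNA from the fat of 13 rats was hybridised to Affymetrix arrays, per the labels' protocols. The deposited values are log2 levels of 29214 probes, for which the submitters' processing notes name RMA and Partek. Versions and filters are not stated in those sources. That the values are log2 follows from their range (3.24 to 14.54). RMA pulls arrays toward a common distribution. Background per probe was not assessed. Precision is limited by how many arrays there are.

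Of the probes, 15310 had 1 gene symbol in the platform annotation. The brightest probe was kept for 527 genes with several, which left 14506 genes. All 10 members matched the RefSeq gene table of GRCr8. Groups were taken from the titles and compared with limma 3.58.1 in R 4.3.3 (lmFit and eBayes, two-sided, Benjamini-Hochberg over all genes, threshold 0.05), with no covariate or filter. Slopes and the interaction with number range came from limma models that kept the diet term. Single measures and pairs of genes used permutation tests in Python 3.11.15. No list was tested as a set.

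Members, lists and tests were chosen with earlier results of these data known. All 10 members are described, and neighbours are named by smallest p in their list, by likeness to the mean of the members (8 genes for each set of arrays), or after their values were seen where this is said. The linear models were tested on simulated data. The share of all gene pairs with a like r was added after the results were seen. Alternatives were other normalizations and centring, a filter on dim genes, probe means, variance models, array weights, covariates, subsets of arrays and leaving out each array. Of cell type markers, Cidea, Cox7a1 and Prdm16 of brown fat, Mylpf, Casq1, Tcap and Neb of muscle and Upk3b and Lrrn4 of mesothelium are not named on the array and were not analysed here. The levels of the other lists, 6 macrophage, 5 T cell, 5 endothelial, 5 fibroblast and 3 liver markers, were 10.51 to 11.06, 6.58 to 7.38, 10.02 to 10.57, 11.68 to 12.15 and 8.30 to 8.97 in controls, and 10.52 to 10.93, 6.51 to 6.92, 10.42 to 10.68, 11.64 to 12.16 and 8.42 to 8.82 in high-fat daughters.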

Additional observations from a re-analysis of the deposited data

Results flagged for a closer look

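Of 24 sets of values tested (10 genes, Ucp1 and muscle signal in each diet group), 2 held a daughter far from the rest of its group, where chance flags about 1 in 20. Etfa in high-fat daughter 660 read 11.83, with the next of the group at 12.18, a gap of 0.778 of the range. Etfb in high-fat daughter 624 read 12.03, with the next at 11.80, a gap of 0.630 of the range. Without high-fat 660 the high-fat minus control difference of Etfa was 0.11 in place of 0.04, and without high-fat 624 that of Etfb was 0.095 in place of 0.15.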

How the results depend on the processing

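The median difference of the 10 genes lay between 0.09 (daughters 656 to 664 alone) and 0.32 (daughters 619 to 631 alone) over all alternatives, and between 0.19 and 0.26 when each array was left out, and 0 of 10 passed for diet under each alternative run. Single genes turned sign 4 times, in daughters 656 to 664 for Acadm (a difference of -0.028), Etfa (-0.067) and Etfdh (-0.026) and without the 6 arrays of high Ucp1 or most muscle signal for Etfa (-0.020). All 4 had a limma adjusted p of at least 0.997, and the cause was not tested. Single arrays moved some differences by over 1.5 times. Acadm was 0.15 and Etfdh 0.10 without high-fat 629 (0.29 and 0.16 as reported), Acaa2 was 0.19 without control 664 (0.29), Etfb was 0.093 without control 658 and 0.095 without high-fat 624 (0.15), and Etfa ranged from 0.0058 without control 664 to 0.11 without high-fat 660 (0.04). Once array spread was a covariate the median difference was 0.18, Decr1 was 0.13 (0.22) and Etfb 0.055. With array weights Etfb was 0.078 and Etfa 0.10, and with renewed quantile normalization Etfdh was 0.10 and Etfa 0.021. Etfb was 0.083 without the 4 arrays of high Ucp1, and Etfa was 0.0069 without the 4 of most muscle signal and 0.018 to 0.065 under the other covariates and centring. The count of genes past the threshold for the slope on Ucp1, 0 as reported, was 1 with renewed quantile normalization, 1 among genes above the middle level, where fewer genes were tested, 1 with array spread as a covariate, 3 with array weights and 0 to 1 when each array was left out (1 without high-fat 663). Each time it was Acadm, joined by Eci1 and Acaa2 with weights. The count for the slope on muscle signal was 2 with array weights (Acadm and Etfdh) and 0 otherwise. No paired analysis was possible because the groups share no sample number.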

Other observations

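Not all listed markers of brown fat read higher in the daughters with high Ucp1. Elovl3, an elongase of brown adipocytes, read 6.82, 6.34, 6.22 and 6.13 in control 658, control 662, high-fat 629 and high-fat 663, and 6.04 to 6.48 in the 9 others. Dio2, the deiodinase that activates thyroid hormone, read 5.39 to 5.78 over all 13. Both genes read below the median level of every array (7.66 to 7.72). Background per probe was not assessed, so whether their probes detect them is not known. By contrast Otop1 and Slc27a2, listed here with brown and beige fat, rose with Ucp1 in limma with diet in the model, by 0.30 ± 0.02 and 0.36 ± 0.02 per log2 unit (adjusted p = 1.7e-05 and 2.77e-06). Cox8b, shared by brown fat and muscle, read 7.69, 9.94, 10.32 and 8.61 in those 4 daughters and 8.89 in control 664, which had muscle signal and low Ucp1. These genes were named after their values were seen.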
